A study of Mus musculus with 16 samples.

Results

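The 10 transcripts described here mark adipocytes, and they were read out in libraries made from whole skeletal muscle. They are the adipokine genes Adipoq, Lep, Retn and Cfd, the lipid droplet genes Plin1, Cidec and Cidea, the fatty acid carrier Fabp4, the nuclear receptor Pparg and the brown fat uncoupling protein Ucp1. They were chosen by gene symbol, and all 10 were found among the 55471 genes of the count table. Of these, 9 passed the filter on low counts together with 14331 genes in all, and Ucp1 did not.

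Muscle mRNA of 16 male mice was sequenced, 1 library per mouse, to ask how loss of 1 copy of the natriuretic peptide receptor gene Npr1 changes muscle in obesity. The 10 mice labelled heterozygous carried the B6.129-Npr1tm1Gar/J allele (Npr1+/-), and the 6 labelled wildtype were their littermates (Npr1+/+). All 16 were C57BL/6J backcrossed males, described as 12 weeks old and given HFD with 60% of kcal as lipids for 12 weeks, where the sources do not say whether the age is that at the start of the diet, and no group on another diet was sequenced. The allele is present in every tissue, the labels do not name the muscle, and the mice came from 4 cages. Labelled body weight ranged from 36.5 to 48.1 g in Npr1+/- mice (43.6 ± 3.79 g, SD, n = 10) and from 40.5 to 54.0 g in Npr1+/+ mice (47.4 ± 4.69 g, SD, n = 6).

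Adipocytes store triglyceride in a single large droplet coated with perilipin 1 and CIDE proteins, and release adiponectin, leptin, resistin and adipsin into the blood. In muscle they lie between the fibers and around the fascicles, where they arise from fibro-adipogenic progenitors, and fat around the muscle can also be taken with it at dissection. In bulk RNA, fewer adipocytes and less RNA per adipocyte cannot be told apart, and neither can fat within the muscle and fat attached to it.

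Library totals ranged from 15273472 to 59682677 counts. Levels are given as CPM, counts relative to the library total after TMM scaling, and tests are edgeR's quasi-likelihood tests with genotype, cage and body weight in 1 model, with p-values adjusted over all 14331 genes by the Benjamini-Hochberg method. Such p-values measure the spread between these mice. Fast fiber genes were abundant in every library, with Myh4, the main fast myosin, between 4960 and 58769 CPM. Npr1 itself had 13.6 ± 3.87 CPM in the libraries labelled Npr1+/- (n = 10) and 12.2 ± 1.05 CPM in those labelled Npr1+/+ (n = 6), a log2 fold change of 0.09 (SE 0.20, edgeR adjusted p = 1.0), so Npr1 mRNA did not separate the labels in these libraries. Other measures of the receptor were not analysed here. Npr1+/- and Npr1+/+ therefore stand for the labels of the libraries throughout.

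The adipokine transcripts were present in all 16 libraries and spread widely. Adipoq encodes adiponectin, the insulin-sensitizing hormone of fat, and lies on chr16:23146536-23158028 (GRCm38, + strand). Its level had a lowest value of 8.33, a median of 30.9 and a highest value of 147 CPM in the 10 Npr1+/- libraries, and of 29.2, 36.1 and 85.0 CPM in the 6 Npr1+/+ libraries. The groups overlapped, with the Npr1+/+ values lying inside the Npr1+/- range. Lep encodes leptin, the satiety hormone that rises with fat mass, and lies on chr6:29060220-29070972 (+ strand). Its lowest, median and highest values were 1.13, 15.8 and 55.6 CPM in Npr1+/- and 9.41, 22 and 29.7 CPM in Npr1+/+ libraries. The highest Lep level was 49.3 times the lowest, a wider span than that of any other tested member.

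Retn encodes resistin, an adipocyte hormone in mice, and lies on chr8:3655770-3660110 (+ strand). It ranged from 0.637 to 11.1 CPM in Npr1+/- libraries (median 2.37) and from 2.57 to 10.9 CPM in Npr1+/+ libraries (median 3.52). Cfd encodes adipsin, the complement factor D made by fat, and lies on chr10:79890853-79892655 (+ strand). Cfd ranged from 17.4 to 103 CPM in Npr1+/- libraries (median 28.5) and from 15.5 to 140 CPM in Npr1+/+ libraries (median 26.7). For both genes a single library of each group, Npr1+/- replicate 10 and Npr1+/+ replicate 4, stood above the other 14.

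The promoters of Adipoq and Lep are shown because these adipokines were among the members whose levels varied most together. Those of Plin1 and Cidec are shown because their ratio differed between the lightest mice and the others, a difference that was not tested. The windows run from 250 bases before to 50 bases after the RefSeq start site (GRCm38.p6), on the strand of the gene. They are Adipoq at chr16:23146286-23146585 (+), Lep at chr6:29059971-29060270 (+), Plin1 at chr7:79732727-79733026 (-) and the downstream of the 2 Cidec windows at chr6:113434715-113435014 (-). Capitals mark matches to TTGCNNAA on either strand, the letters of a C/EBP type site, which includes the stricter TTGCGCAA.
Adipoq: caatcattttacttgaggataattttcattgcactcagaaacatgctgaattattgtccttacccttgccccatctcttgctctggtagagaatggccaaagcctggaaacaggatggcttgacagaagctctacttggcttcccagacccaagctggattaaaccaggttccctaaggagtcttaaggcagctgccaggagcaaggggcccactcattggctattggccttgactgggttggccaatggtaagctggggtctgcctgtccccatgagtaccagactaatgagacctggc
Lep: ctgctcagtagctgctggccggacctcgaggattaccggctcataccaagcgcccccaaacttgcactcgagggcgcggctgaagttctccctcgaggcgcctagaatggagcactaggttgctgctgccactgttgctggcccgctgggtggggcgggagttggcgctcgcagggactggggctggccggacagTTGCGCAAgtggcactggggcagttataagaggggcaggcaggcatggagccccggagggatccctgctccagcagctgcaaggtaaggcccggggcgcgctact
Plin1: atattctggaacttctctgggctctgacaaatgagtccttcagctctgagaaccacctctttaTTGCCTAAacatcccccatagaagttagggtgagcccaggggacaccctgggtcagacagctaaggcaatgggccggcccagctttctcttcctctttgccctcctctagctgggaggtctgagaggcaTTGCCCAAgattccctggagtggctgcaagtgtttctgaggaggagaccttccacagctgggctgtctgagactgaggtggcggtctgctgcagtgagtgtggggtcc
Cidec: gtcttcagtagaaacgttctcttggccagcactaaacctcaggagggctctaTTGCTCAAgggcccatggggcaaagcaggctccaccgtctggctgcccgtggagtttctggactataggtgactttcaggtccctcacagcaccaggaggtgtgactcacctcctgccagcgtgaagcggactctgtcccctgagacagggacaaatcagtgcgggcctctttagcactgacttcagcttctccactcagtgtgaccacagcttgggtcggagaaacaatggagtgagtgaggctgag
Lep held TTGCGCAA with its first base at -55 from the start site, and 60 of 32851 mouse promoter windows (0.183%) hold those letters. TTGCNNAA was matched at -187 and -58 in Plin1 and at -198 in the Cidec window shown, against 10.8% of all windows, and the Adipoq window held none. The other Cidec window, at chr6:113435711-113436010 (-), held none either. That window is the one at the start of the counted gene, whereas the start site of the Cidec window shown lies inside the gene. The consensus direct repeat read by PPARG with RXR was in none of the 11 windows matched for 8 members, against 0.0396% of all windows. A match here describes letters in these windows, and the table had no window for Fabp4 and Cidea.

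The lipid droplet transcripts behaved alike only in part. Plin1 encodes perilipin 1, which coats the droplet and gates lipolysis, and lies on chr7:79720218-79732787 (- strand). Its lowest, median and highest values were 3.87, 8.49 and 29.7 CPM in Npr1+/- libraries and 5.10, 8.11 and 36.8 CPM in Npr1+/+ libraries. Cidec, whose product enlarges droplets by fusing them, lies on chr6:113424634-113435756 (- strand). Cidec values were 2.89, 16.6 and 84.3 CPM in Npr1+/- and 14.7, 23.7 and 46.5 CPM in Npr1+/+ libraries. Both genes were lowest in Npr1+/- replicate 3, and both had Npr1+/- replicate 10 and Npr1+/+ replicate 4 as their 2 highest libraries. The highest Cidec level was in Npr1+/- replicate 10 and the highest Plin1 level in Npr1+/+ replicate 4. Log2 CPM of Plin1 and Cidec had Pearson r = 0.79 over the 16 libraries. Cidea, a CIDE protein best known from brown fat, is on chromosome 18 and was near the bottom of the scale, with 0.774, 1.34 and 2.49 CPM in Npr1+/- and 0.754, 1.11 and 1.61 CPM in Npr1+/+ libraries. Its groups overlapped, its span from lowest to highest was 3.30 times, and its 2 highest libraries were Npr1+/- replicate 1 (2.49 CPM) and Npr1+/- replicate 10 (2.33 CPM), while Npr1+/+ replicate 4, at 1.25 CPM, was near its median of 1.26 CPM.

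Fabp4 encodes a fatty acid carrier made by adipocytes, by capillary endothelium and by macrophages, and lies on chr3:10204088-10208576 (- strand). It was the most abundant member, with a lowest, median and highest value of 240.0, 415 and 784 CPM in Npr1+/- libraries and of 373, 452 and 603 CPM in Npr1+/+ libraries. The Npr1+/+ values lay inside the Npr1+/- range. Pparg encodes the master transcription factor of adipocyte differentiation and lies on chr6:115360951-115490399 (+ strand). It ranged from 3.09 to 7.03 CPM in Npr1+/- libraries (median 5.33) and from 3.82 to 8.0 CPM in Npr1+/+ libraries (median 5.35), the narrowest span of the tested members at 2.59 times. Ucp1, the proton channel that defines brown and beige fat, had 2 counts in all 16 libraries together, 1 in Npr1+/- replicate 6 and 1 in Npr1+/+ replicate 2. The other 14 libraries held 0 counts, and the upper limit that a count of 0 allows (3 counts) came to between 0.0493 and 0.219 CPM, depending on the library's total. Ucp1 was therefore not detectable at this depth, and no fold change is given. These limits cover counting error only.

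**Figure D1:**
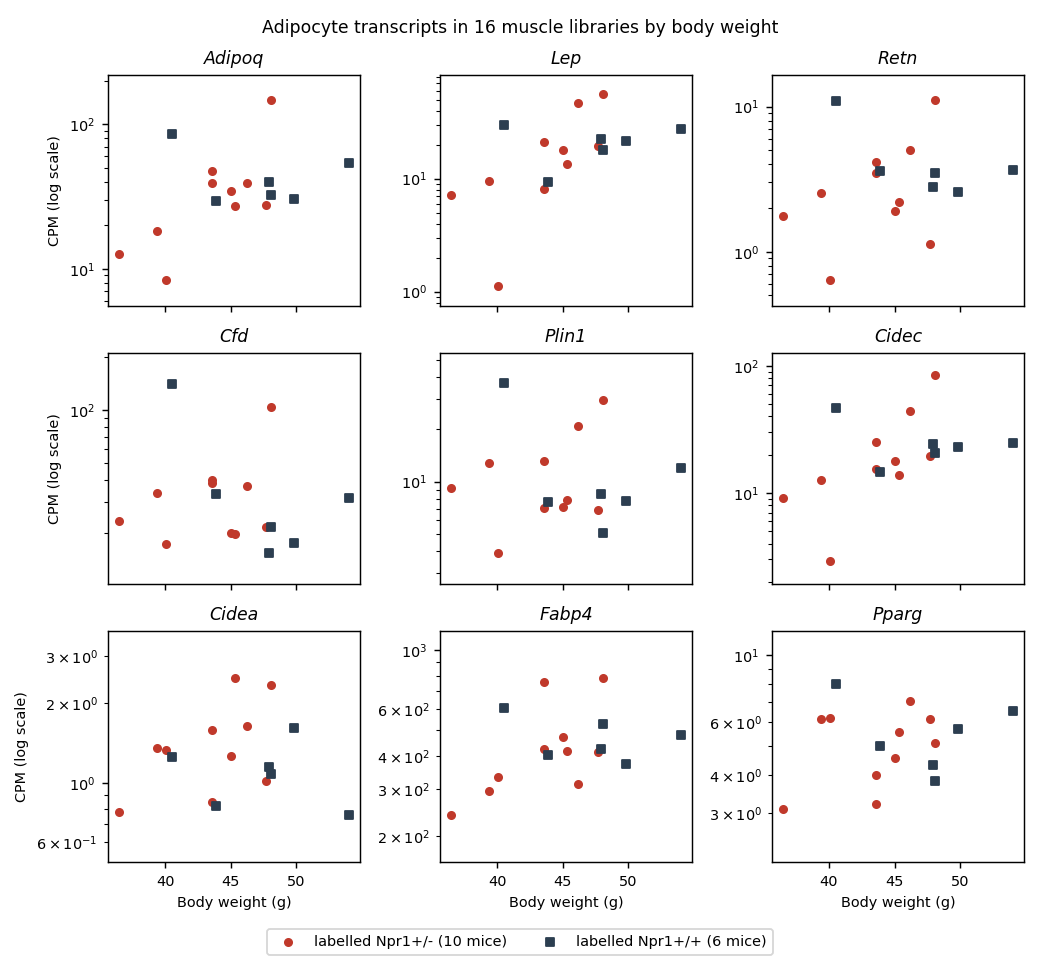
Level of each tested member (CPM, log scale) in each of the 16 mice against labelled body weight (g), with circles for the 10 mice labelled Npr1+/- and squares for the 6 labelled Npr1+/+. Lep, Cidec and Adipoq were low in the 3 lightest Npr1+/- mice, while the Npr1+/+ mouse of 40.5 g and the Npr1+/- mouse of 48.1 g had the highest or next highest values of Adipoq, Retn, Cfd and Plin1.

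Per kilobase of counted exon length, which allows levels of different genes to be compared, Fabp4 had the highest median (93.7 CPM per kb), followed by Cfd (29.9), Adipoq (24.1), Cidec (10.8) and Lep (5.60 CPM per kb). Retn (1.97), Pparg (1.80), Plin1 (1.76) and Cidea (1.13 CPM per kb) followed. Adipoq was above Cidec and Cidec above Lep in 16 of 16 libraries, and Fabp4 was above Cfd in 15. The order of Cfd over Adipoq held in 12 of 16 libraries, that of Retn over Pparg in 10 and that of Pparg over Plin1 in 7, so these neighbours did not differ beyond their spread. The counted length of Fabp4, 4489 bases, equals the whole span of the gene, introns included, whereas that of every other member is shorter than its gene.

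Lep, Cidec, Retn, Adipoq, Cfd and Plin1 were among the most variable genes of these libraries. The SD of log2 CPM over the 16 mice was 1.29 for Lep, larger than in 99.6% of tested genes. It was 1.07 for Cidec (99.0%), 1.01 for Retn (98.6%) and 0.97 for Adipoq (98.2%), and 0.89 and 0.87 for Cfd and Plin1 (97.0% and 96.7%). Cidea, Fabp4 and Pparg had SDs of 0.49, 0.46 and 0.39, close to the median of 0.38 over all tested genes.

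The summed level of the 6 variable members ranged from 34.3 CPM in Npr1+/- replicate 3 to 431 CPM in Npr1+/- replicate 10, with 349 CPM in Npr1+/+ replicate 4 and 193 CPM in the next library, Npr1+/- replicate 6. Npr1+/- replicate 10 was among the 2 highest libraries for 6 of the 6 genes and Npr1+/+ replicate 4 for 5 of 6, whereas Npr1+/- replicate 3 was the lowest for 5 of 6. The first of these mice weighed 48.1 g, the other two 40.5 g and 40.1 g. Npr1+/+ replicate 4 was the lightest Npr1+/+ mouse, and the only one in its cage. Of 11 further white adipocyte markers, 9 had their highest level in Npr1+/- replicate 10 or Npr1+/+ replicate 4, against 15.6% of all tested genes. Of 8 macrophage markers, 5 erythrocyte, 5 Schwann cell and 4 tendon markers none did. Among lists of other genes it was 2 of 4 adipokine receptors, 5 of 11 genes of triglyceride storage and lipolysis, 2 of 5 slow fiber genes, 1 of 2 lymphocyte genes, 2 of 6 capillary fatty acid handling genes and 2 of 8 lipogenic enzyme genes, and 1 each of 10 brown adipocyte, 7 fibro-adipogenic progenitor, 8 endothelial and 6 fast fiber genes. Spreads, fold changes, slopes and correlations of the members are therefore also given without these 2 libraries. In the other 14 libraries the SD of log2 CPM was 1.25 for Lep (larger than in 99.6% of tested genes), 0.90 for Cidec (97.5%), 0.76 for Retn (93.8%), 0.73 for Adipoq (92.9%), 0.60 for Plin1 (84.2%) and 0.47 for Cfd (68.9%). The SD of each of the 6 was smaller among these 14 than among all 16, which leaving out the highest libraries favours.

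None of the 9 tested members passed the threshold for a difference between the genotype labels. The edgeR test called 0 of 14331 genes (0%) and 0 of 9 members at an adjusted p under 0.05, and at an unadjusted p under 0.05 it called 151 genes (1.05%) and 0 members. DESeq2 called 6 genes by genotype and limma-voom 0, and no member was among them. The members' log2 fold changes (Npr1+/- over Npr1+/+) ran from -0.44 for Retn and Cfd (SE 0.55 and 0.54) to 0.37 for Cidea (SE 0.33), with a median of -0.19 against -0.01 over all tested genes. Adipoq had a log2 fold change of -0.29 (SE 0.43) and Lep one of 0.03 (SE 0.53), with edgeR adjusted p = 1.0 for each. Without covariates the mean log2 CPM of Npr1+/- minus Npr1+/+ libraries was -0.49 for Adipoq and -0.59 for Lep, the latter opposite in sign to the model's value, with a two-sided exact permutation p over all 8008 splits of the mice of 0.354 and 0.426.

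In the edgeR model the sign of most of these values depended on a single library, Npr1+/+ replicate 4. It was the only Npr1+/+ library of its cage, so leaving it out also took that cage out of the comparison of labels within cages. Its level and this change of design were not told apart. Without Npr1+/+ replicate 4, the log2 fold change by genotype label was 0.89 for Adipoq, 1.08 for Lep, 0.94 for Retn, 1.30 for Cfd, 1.09 for Plin1 and 1.07 for Cidec, still with edgeR adjusted p = 1.0 for each. At an unadjusted p under 0.05 that fit had 1 of 9 members, Cfd (p = 0.0279), against 127 of 14501 genes (0.876%). The library left out had the highest Cfd level of all, so its removal lowered the Npr1+/+ level of Cfd, and this count is a description. Without both Npr1+/+ replicate 4 and Npr1+/- replicate 10 those of Adipoq, Cfd, Plin1 and Cidec were 0.30, 0.66, 0.60 and 0.56, and the 1 of 9 members at an unadjusted p under 0.05 was Pparg, at 0.52 (SE 0.23, p = 0.0423, edgeR adjusted p = 1.0), against 0.662% of genes. Npr1+/+ replicate 4 was the highest library for Pparg too, so this count is also a description. Across these 3 fits Lep and Cidea kept a positive value, and the other 7 members changed sign.

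The slopes on body weight were positive for some members and near 0 or negative for others, and none passed the adjusted threshold. In the same model edgeR called 0 of 14331 genes (0%) and 0 of 9 members by body weight at an adjusted p under 0.05. At an unadjusted p under 0.05 it called 2449 genes (17.1%) and 1 of 9 members, Fabp4. DESeq2 and limma-voom also called 0 genes by body weight. The members' log2 slopes per 10 g had a median of 0.52 against -0.03 over all tested genes, and 6 of 9 were positive against 47.3% of all tested genes.

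Lep had the steepest slope, with a log2 change per 10 g of 1.48 (SE 0.87, edgeR adjusted p = 0.370). Its level was 7.14, 9.55 and 1.13 CPM in the 3 lightest mice, all Npr1+/-, but 29.65 CPM in the next lightest, Npr1+/+ replicate 4 at 40.5 g. In the Npr1+/+ mice of 48.1, 49.8 and 54.0 g it was 18, 21.5 and 27.5 CPM. Adipoq followed with a slope of 1.35 (SE 0.65, edgeR adjusted p = 0.300). Its level was 12.6, 18.1 and 8.33 CPM in the 3 lightest mice, but 85.0 CPM in Npr1+/+ replicate 4. In the Npr1+/+ mice of 48.1, 49.8 and 54.0 g it was 32.2, 30.4 and 53.5 CPM, against a median of 33.3 CPM over all 16 mice. Cidec had a slope of 1.11 (SE 0.84, adjusted p = 0.474) and Fabp4 one of 0.67 (SE 0.31, unadjusted p = 0.0470, edgeR adjusted p = 0.288). The Fabp4 slope depended on the model: it was 0.39 (SE 0.28, unadjusted p = 0.185) without cage, 0.38 (SE 0.26, unadjusted p = 0.161) with body weight alone and 0.0544 (SE 0.21, unadjusted p = 0.804) with a block for replicate number where cage had been. Over the 16 fits that left out 1 mouse each, its unadjusted p was under 0.05 in 6. Without cage and with body weight alone the 1 of 9 members at an unadjusted p under 0.05 was Lep, with slopes of 1.36 (SE 0.57) and 1.35 (SE 0.55), against 8.21% and 14.8% of genes, and with the block it was 0 of 9 against 1.48%. In the model with genotype and cage the remaining slopes were within 1 SE of 0: Retn 0.52 (SE 0.85), Cidea 0.03 (SE 0.44), Cfd -0.25 (SE 0.78), Plin1 -0.39 (SE 0.81) and Pparg -0.30 (SE 0.31).

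The slopes also depended on Npr1+/+ replicate 4, a light mouse with high adipocyte transcripts. Without it the log2 slope per 10 g was 2.45 for Adipoq (SE 0.57), 2.52 for Lep (SE 0.83), 2.27 for Cidec (SE 0.74), 1.82 for Retn (SE 0.78), 1.28 for Cfd (SE 0.60) and 1.02 for Fabp4 (SE 0.36). These 6 of 9 members then had an unadjusted p under 0.05, against 15.2% of the genes tested in that fit, and edgeR still called 0 genes (0%) at an adjusted p under 0.05, with adjusted p between 0.251 and 0.328 for the 6. Plin1, at 0.90 (SE 0.65), had the sign opposite to that with all mice, as did Cfd. This library was singled out by its weight and its levels of the members, and leaving out such a mouse steepens their slopes. The p-values and the count of members in this fit are therefore a description. With both highest libraries left out the slope was 1.87 for Adipoq (SE 0.42), 2.21 for Lep (SE 0.89), 1.75 for Cidec (SE 0.71) and 0.82 for Fabp4 (SE 0.34). These 4 of 9 members had an unadjusted p under 0.05, against 12.7% of the genes tested in that fit, and edgeR again called 0 genes (0%) at an adjusted p under 0.05, with adjusted p between 0.374 and 0.378 for the 4. The slopes of Retn, Cfd and Plin1 were 1.07, 0.67 and 0.41 (SE 0.68, 0.40 and 0.61), and their unadjusted p was above 0.05. Both libraries were picked by the members' own levels, so the p-values and the count of this fit are a description too.

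Leaving out Npr1+/- replicate 3, the light mouse with the lowest adipocyte transcripts, lowered the slope of every tested member except Fabp4, whose slope rose. Lep had a slope of 0.52 (SE 0.68), Cidec 0.24 (SE 0.82), Adipoq 0.90 (SE 0.78) and Plin1 -1.26 (SE 0.83). Retn and Cidea changed sign, to -0.20 (SE 0.89) and -0.0956 (SE 0.53). In that fit 3158 of 14284 genes (22.1%) and 1 of 9 members passed an adjusted p under 0.05, the member being Fabp4 with a slope of 1.02 (SE 0.36, edgeR adjusted p = 0.0498).

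**Figure D2:**
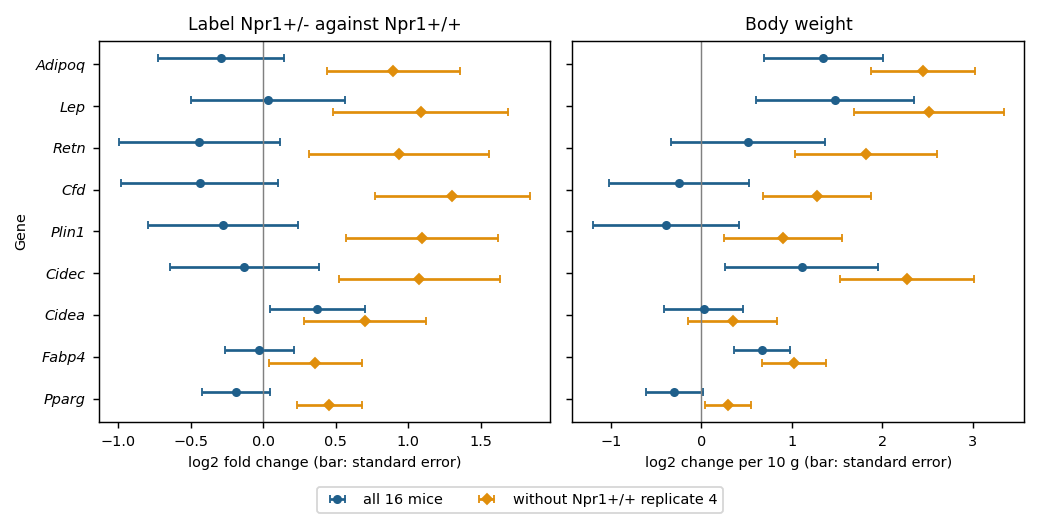
Log2 fold change of the 9 tested members between genotype labels (left, Npr1+/- over Npr1+/+) and log2 change per 10 g of body weight (right) from the edgeR model, with bars of 1 standard error. Circles are the fit to all 16 mice and diamonds the fit without Npr1+/+ replicate 4, in which all 9 values lie above 0 on each side.

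Over all 16 mice, correlations without a model also put Lep first, with Cidec and Adipoq next. Within cages, and by Pearson r without the 2 libraries highest for Adipoq, Adipoq came first, as given below. Across the 16 mice, log2 CPM of Lep and body weight had Pearson r = 0.57 (permutation p = 0.0215, adjusted p = 0.410) and Spearman rho = 0.62 (permutation p = 0.0126, adjusted p = 0.356), both adjusted over all 14331 genes. For Cidec, Pearson r was 0.47 (permutation p = 0.0616) and Spearman rho 0.55 (permutation p = 0.0294), with adjusted p = 0.422 and 0.357. For Adipoq they were 0.49 (permutation p = 0.0509) and 0.44 (permutation p = 0.0890), with adjusted p = 0.418 and 0.430. No gene of 14331 (0%) passed either measure after adjustment, and at an unadjusted p under 0.05 the Pearson test called 12% of genes and 1 of 9 members, Lep, and the Spearman test 13.1% of genes and 2 of 9 members, Lep and Cidec.

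The 2 mice farthest from the median weight were those of 36.5 and 54.0 g. Without them Pearson r was 0.56 for Lep (permutation p = 0.0297) and 0.46 for Cidec, but 0.34 for Adipoq and 0.19 for Fabp4. Within cages, with values and weights centred on the cage and permuted inside it, r was 0.65 for Adipoq (permutation p = 0.0117, adjusted p = 0.184), 0.64 for Lep (permutation p = 0.0574), 0.56 for Cidec (permutation p = 0.0790) and 0.61 for Fabp4 (permutation p = 0.00843, adjusted p = 0.184). At an unadjusted p under 0.05 this within-cage test called 24.7% of all genes and 2 of 9 members. Plin1 and Cfd had r of -0.01 and -0.13 over all mice and of 0.04 each within cages. These 9 correlations were read from 1 family of 14331 tests per setting.

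Without the 2 libraries highest for Adipoq, 14 mice were left. Both were picked by the members' own levels, so the p-values and counts of members that follow are a description and no separate test. Pearson r with body weight was then 0.73 for Adipoq (permutation p = 0.00249), 0.65 for Lep (permutation p = 0.0127) and 0.63 for Cidec (permutation p = 0.0171), each with adjusted p = 0.449. Spearman rho was 0.52 for Adipoq (permutation p = 0.0612), 0.75 for Lep (permutation p = 0.00257) and 0.67 for Cidec (permutation p = 0.00974), each with adjusted p = 0.475. No gene (0%) passed after adjustment by either measure. At an unadjusted p under 0.05 the Pearson test called 11% of genes and 3 of 9 members, and the Spearman test 10.1% of genes and 2 of 9 members. Cfd and Plin1 had r of -0.12 and 0.09, and Cidea one of 0.0021.

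The members' levels moved together across mice in part. Over the 16 libraries Lep and Cidec had the closest pattern of any pair (Pearson r = 0.96, Spearman rho = 0.94), and Cfd and Plin1 had r = 0.86 (rho = 0.62). Adipoq was tested against the others: with Cidec r was 0.92 (permutation, adjusted p = 0.0143) and rho 0.86 (permutation, adjusted p = 0.0478). With Retn they were 0.87 (permutation, adjusted p = 0.0425) and 0.82 (permutation, adjusted p = 0.0806), against 26 of 14330 genes (0.181%) called by Pearson r and 11 (0.0768%) by Spearman rho. Lep, Fabp4, Cfd and Plin1 had r with Adipoq of 0.82, 0.80, 0.71 and 0.71 and did not pass the adjusted threshold, while Cidea and Pparg had r of 0.28 and 0.15.

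The relations with Adipoq rested in part on the extremes. Without the libraries farthest from its median, Npr1+/- replicates 10 and 3, r was 0.80 for Cidec and 0.72 for Retn, each with a permutation adjusted p = 0.340, in a setting that called 5 genes (0.0349%) and 0 members. Centred on cage r was 0.91 and 0.92 for these genes (permutation, adjusted p = 0.268 and 0.151), and 0 genes (0%) were called. Without the 2 highest libraries, Npr1+/- replicate 10 and Npr1+/+ replicate 4, r with Adipoq was 0.86 for Cidec (permutation, adjusted p = 0.176), 0.80 for Lep, 0.76 for Retn and 0.67 for Fabp4 (permutation, adjusted p = 0.505 for each of these 3), and rho was 0.78, 0.64, 0.74 and 0.72 (permutation, adjusted p = 0.723 for each of the 4). Pearson r called 5 genes (0.0349%) and 0 members there, and Spearman rho 0 genes (0%). Cfd and Plin1 then had r of 0.36 and 0.41 with Adipoq. Lep and Cidec stayed the closest pair in these 14 libraries (r = 0.98, rho = 0.92), while Cfd and Plin1 had r = 0.61 (rho = 0.43). Over all 16 libraries Pparg, the regulator of the adipocyte program, had its highest r with a member at 0.41, with Plin1.

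**Figure D3:**
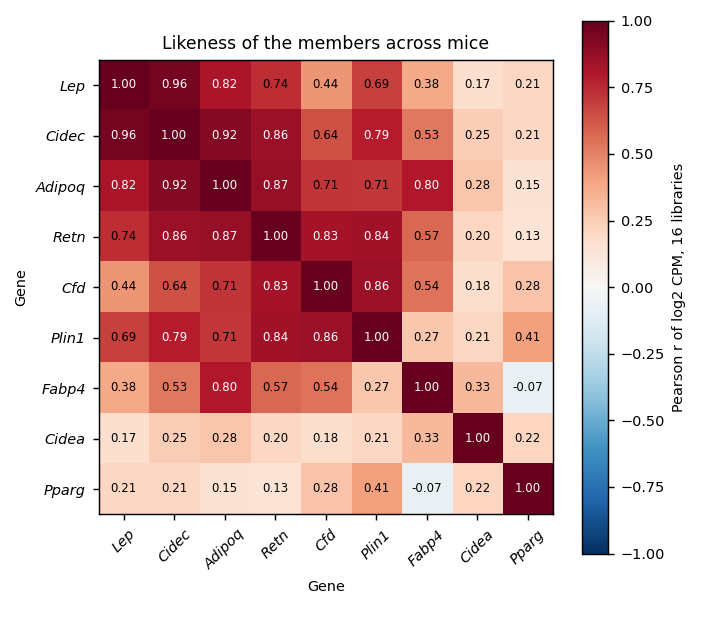
Pearson r of log2 CPM between each pair of the 9 tested members over the 16 libraries, on a color scale from -1 to 1. Lep, Cidec, Adipoq, Retn, Cfd and Plin1 form a block of values from 0.44 to 0.96, Fabp4 reaches 0.80 with Adipoq, and Cidea and Pparg stay at or below 0.41 with every other member.

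The genes whose pattern was most like that of Adipoq were picked by Pearson r over the 16 libraries, as a description. Cdo1, a cysteine dioxygenase, led with r = 0.98 and ranged from 3.28 to 42.3 CPM. It was followed by Orm1 (0.96), Cebpa (0.96), Sucnr1 (0.96), Mrap (0.95), Serpina3c (0.95), Ankef1 (0.92), Prkar2b (0.92), Cidec (0.92) and Sncg (0.91). Cebpa encodes C/EBP alpha, the partner of PPARG in adipocyte differentiation, and had 3.19 CPM in Npr1+/- replicate 3, 19.97 CPM in Npr1+/- replicate 10 and 21.5 CPM in Npr1+/+ replicate 4. Mrap encodes the accessory protein of the melanocortin receptor for ACTH and Sucnr1 the succinate receptor, and both were also lowest in Npr1+/- replicate 3 and highest in Npr1+/- replicate 10. Those most like Fabp4 were Hebp1 (0.96), Cyb5a (0.95), Tmem120a (0.94), Rit1 (0.94) and Sncg (0.94). For Pparg they were Kctd21 (0.78), the cell cycle inhibitor Cdkn1a (0.76), Pmepa1 (0.73), Gm10138 (0.72) and the clock gene Cry1 (0.72), none of them on the adipocyte lists.

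The balance between adipocyte transcripts within a library differed between the lightest mice and the others. The ratio of Lep to Plin1 CPM was between 0.291 and 0.805 in the 4 lightest mice (36.5 to 40.5 g) and between 1.16 and 3.53 in the 12 heavier ones, so these did not overlap. Npr1+/+ replicate 4, with abundant adipocyte transcripts, and Npr1+/- replicate 3, with the fewest, thus fell on the same side, at 0.805 and 0.291. Cidec over Plin1 was between 0.747 and 1.26 in the 4 lightest mice and between 1.78 and 4.04 in the others. Adipoq over Plin1 ranged from 1.38 to 6.75 and overlapped between the lighter and the heavier mice, with Npr1+/- replicate 6, at 46.2 g, at a ratio of 1.87. Cfd over Plin1 ranged from 1.78 to 5.69 with no such order, and Lep over Cidec from 0.390 to 1.12. These ratios were looked at after the levels were known and are a description without a test.

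**Figure D4:**
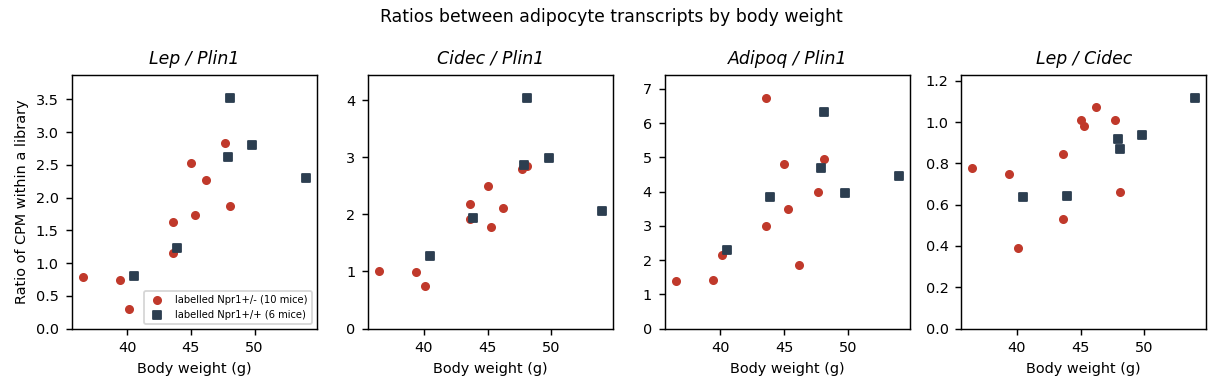
Ratio of CPM between adipocyte transcripts within each library against labelled body weight (g), with circles for Npr1+/- and squares for Npr1+/+ mice, on linear axes from 0. Lep over Plin1 lies between 0.291 and 0.805 in the 4 lightest mice and at 1.16 or above in the other 12.

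Fabp4 followed a property of the libraries. A transcript length index was computed for each library as the mean log2 deviation of the shortest 25% of genes minus that of the longest 25%, and it ran from -0.96 in Npr1+/- replicate 7 to 0.57 in Npr1+/- replicate 9. Log2 CPM of Fabp4 had Pearson r = 0.89 with this index (permutation, adjusted p = 0.000138) and rho = 0.84 (permutation, adjusted p = 0.000478). Adipoq had r = 0.58 (permutation, adjusted p = 0.0383) and rho = 0.49 (permutation, adjusted p = 0.105), and no other member had an absolute r above 0.41. By Pearson r the index was correlated with 7775 of 14331 genes (54.3%) in either direction, 3745 of them (26.1%) positively like the 2 of 9 members, so the members' count is near the share over all genes. By Spearman rho it was correlated with 47.8% of genes, where Fabp4 was the 1 member called. Centred on cage the Fabp4 value was 0.89, where 46.6% of genes and 1 of 9 members were called, and without the 2 libraries farthest on the index it was 0.85, where 32.9% of genes and 1 of 9 members were called. Without the 2 libraries highest for Adipoq the Fabp4 value was 0.88 (rho = 0.80), with 53.7% of genes called by Pearson r and 46.2% by Spearman rho, and Fabp4 the 1 member called by each, and that of Adipoq was 0.46 (permutation, adjusted p = 0.148). The index and body weight had r = 0.42 (permutation p = 0.101) and rho = 0.37 (permutation p = 0.155), and with the index as a covariate the Fabp4 slope on body weight was 0.23 per 10 g (SE 0.20). Without the 3 libraries lowest on the index that slope was 0.44 (SE 0.32).

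**Figure D5:**
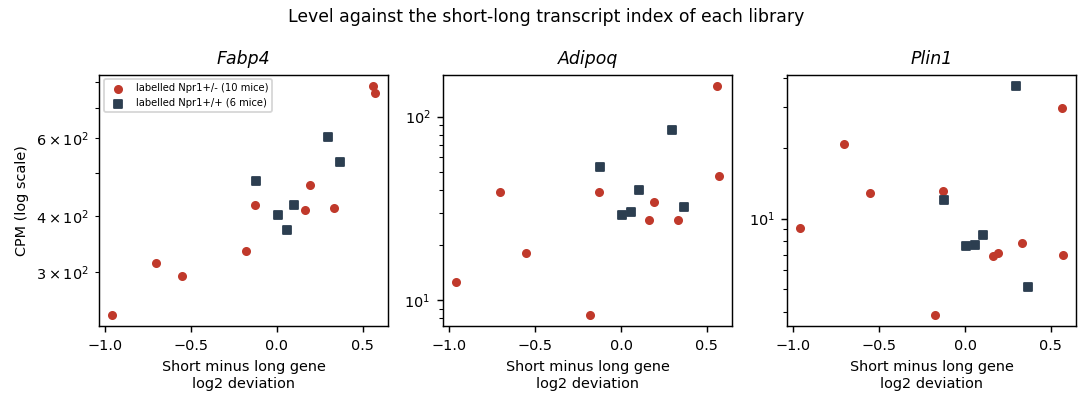
Level of Fabp4, Adipoq and Plin1 (CPM, log scale) against the transcript length index of each library (log2 deviation of short minus long genes), with circles for Npr1+/- and squares for Npr1+/+ mice. Fabp4 rises along the index from 240.0 CPM at -0.96, while Plin1 shows no such order.

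No member passed the threshold for a difference between cages. The edgeR test of cage called 4 of 14331 genes (0.0279%) and 0 of 9 members at an adjusted p under 0.05, and 1055 genes (7.36%) and 0 members at an unadjusted p under 0.05. The smallest unadjusted p of a member was 0.0726, for Adipoq.

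The genes that surround these members in fat metabolism were read from fixed lists, and edgeR called none of them by genotype, cage or body weight. Over all tested genes 47.3% had a positive slope on body weight and 52.7% a negative one, with 4.74% higher and 12.3% lower at an unadjusted p under 0.05, and the counts of each list are read against these shares. All 4 receptors of the adipokines were expressed, the adiponectin receptor genes Adipor1 and Adipor2 with medians of 508 and 250.3 CPM, T-cadherin gene Cdh13 with 107 CPM and leptin receptor gene Lepr with 2.90 CPM. Their log2 slopes per 10 g lay between -0.32 and 0.28. Of 11 tested genes of triglyceride storage and lipolysis 4 had a positive slope and 7 a negative one, with 2 of each at an unadjusted p under 0.05. G0s2, which inhibits the lipase ATGL, had a slope of 1.35 (SE 0.36, unadjusted p = 0.00159, edgeR adjusted p = 0.245). Pnpla2, which encodes ATGL, had a slope of -1.0 (SE 0.31, adjusted p = 0.245) and Plin4 one of -1.01 (SE 0.35, adjusted p = 0.245).

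Of 8 lipogenic enzyme genes 6 had a negative slope. Fasn, the fatty acid synthase, had -1.55 (SE 0.70, edgeR adjusted p = 0.279) and Acaca, which makes its substrate malonyl-CoA, -1.33 (SE 0.49, adjusted p = 0.246). Of 11 further white adipocyte markers 10 had a positive slope, against 47.3% of all genes, with a median of 0.29, and 1 was higher at an unadjusted p under 0.05, against 4.74%. That 1 was Car3, a carbonic anhydrase that muscle fibers also express, with a slope of 0.67 (SE 0.28, edgeR adjusted p = 0.258), a median of 5123 CPM and its lowest level, 3402 CPM, in Npr1+/- replicate 10, the library highest for Adipoq. Of 10 brown adipocyte markers 3 had a positive slope, the median was -0.34, and none reached an unadjusted p under 0.05. Among these, Cox8b and Cox7a1, respiratory chain subunits that muscle fibers also express, had medians of 455 and 586 CPM, while Ucp1 was not detectable.

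Markers of other cells that express Fabp4 or lie near fat were set beside these values. Of 8 macrophage markers 7 had a positive slope, against 47.3% of all genes, and 4 were higher at an unadjusted p under 0.05, against 4.74%, with Lyz2 at 0.88 (SE 0.37) and C1qa at 0.92 (SE 0.37, edgeR adjusted p = 0.251). Their summed level was between 52.3 and 203 CPM in Npr1+/- and between 89.2 and 167 CPM in Npr1+/+ libraries. Of 8 endothelial markers 6 had a negative slope, 2 of them at an unadjusted p under 0.05, and their sum was between 294 and 616 CPM in Npr1+/- and between 305 and 398 CPM in Npr1+/+ libraries. Of 7 fibro-adipogenic progenitor markers 4 had a positive and 3 a negative slope, and at an unadjusted p under 0.05 2 were higher and 2 lower, against 4.74% and 12.3% of all genes. The higher ones were Dpp4, a surface peptidase, at 0.95 (SE 0.33, edgeR adjusted p = 0.245) and Cd34, a surface glycoprotein that endothelium also carries, at 0.51 (SE 0.18, edgeR adjusted p = 0.245). The lower ones were Zfp423, a regulator of preadipocyte commitment, at -1.35 (SE 0.35, edgeR adjusted p = 0.245) and Dlk1, an inhibitor of adipocyte differentiation, at -1.31 (SE 0.56, edgeR adjusted p = 0.260), the latter named after its value was seen. Of the keratinocyte markers Krt1 had 0 counts and Krt5 and Krt14 had 1 count each over all libraries, while Krt10 had a median of 2.08 CPM. The part of macrophages and endothelium in the Fabp4 slope was not tested.

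Blood, lymphocyte, nerve, tendon and fiber type markers were also counted. All 5 erythrocyte genes had a positive slope, 2 at an unadjusted p under 0.05, as did both tested lymphocyte genes, 1 of them at that level. Of 5 Schwann cell genes 3 had a negative slope and of 4 tendon genes 3 a positive one, with 1 at an unadjusted p under 0.05 in each. Of 6 capillary fatty acid handling genes 4 had a positive slope, 1 of them at that level. Of 6 fast fiber genes 4 had a negative slope, against 52.7% of all genes, and 3 were lower at an unadjusted p under 0.05, against 12.3%, with Myh4 at -2.08 (SE 0.58, edgeR adjusted p = 0.245), and of 5 slow fiber genes 3 had a negative slope.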

How the data were processed

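Per the labels and the study's methods, mRNA libraries of 16 muscles were sequenced as 52-base pairs, mapped to GRCm38 with STAR 2.7.2b and counted on GENCODE M24 genes with featureCounts (1.6.4 in the submitters' processing notes). The authors deposited raw counts per gene, with a gene length. All 10 members were matched to a symbol through GENCODE M21, and no annotated exon of another gene overlapped theirs.

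Genes were filtered with filterByExpr by genotype, scaled with TMM and tested with edgeR 4.0.16 in R 4.3.3 (glmQLFit, robust, and glmQLFTest) on genotype, cage and body weight, the study's stated design. P-values were adjusted over all tested genes by the Benjamini-Hochberg method (threshold 0.05). Correlations used log2 CPM with a prior count of 2 and 100000 permutations (Python 3.11.15), and single members an exact permutation test over 8008 splits. The code was tested on simulated data. Totals of 15273472 to 59682677 counts put 3 counts at 0.0493 to 0.219 CPM. Promoter windows were taken from RefSeq.

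Alternatives were another scaling, other filters, DESeq2 1.42.0, limma-voom 3.58.1, other covariates, a replicate block and leaving out each mouse. Named genes were the members, called genes, the 3 genes of each list with the smallest p for body weight, its 2 most abundant genes, and the genes most like Adipoq (10), Fabp4 and Pparg (5 each). Members and lists were chosen with earlier results of these data known.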

Additional observations from a re-analysis of the deposited data

Results flagged for a closer look

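In 4 of the 20 groups of values examined (9 tested members and body weight in each of the 2 genotype labels), 1 library lay farther from the others than Dixon's 95% value allows, where chance gives about 1 in 20 groups. Lep in Npr1+/- replicate 3 was the lowest of its group at 0.28 log2 CPM, with the next library at 2.85. This gap, 0.466 of the range of the group, passed Dixon's value only at the margin. Retn in Npr1+/+ replicate 4 was the highest of its group at 3.46 log2 CPM, with the next at 1.89. Cfd was the highest in Npr1+/- replicate 10 at 6.69 log2 CPM (next 5.32) and in Npr1+/+ replicate 4 at 7.13 log2 CPM (next 5.05). These are the libraries whose members were high or low together. Their cause was not tested.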

How the results depend on the processing

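No member passed an adjusted p under 0.05 by genotype label under any alternative, and by body weight only Fabp4 did, without Npr1+/- replicate 3. Over the fits that left out 1 mouse each, between 0 and 3 genes were called by genotype label (the 3 without Npr1+/+ replicate 3) and between 0 and 3158 by body weight, and between 0 and 1 members by body weight. The replicate block in place of cage called 2 genes by genotype label and 1 by body weight, and gave Plin1 a genotype value of 0.0137 and a slope of 0.107. Same-numbered mice are different animals, and the mean r of their deviations was 0.08 over 6 pairs (0.03 to 0.17) against -0.01 over 54 other pairs. By genotype label 8 genes were called without a filter on low counts and 6 by DESeq2. By body weight 333 genes were called without genotype in the model. The cause was not tested.

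Of 261 log2 fold changes of members by genotype label 221 kept their direction and 40 did not, and of 259 slopes on body weight 24 changed direction. Leaving out 1 mouse each gave genotype values of -0.58 to 0.89 for Adipoq, -0.56 to 1.08 for Lep, -0.83 to 0.94 for Retn, -0.88 to 1.30 for Cfd, -0.61 to 1.09 for Plin1, -0.63 to 1.07 for Cidec, 0.22 to 0.70 for Cidea, -0.18 to 0.36 for Fabp4 and -0.36 to 0.46 for Pparg. The slopes per 10 g ran from 0.90 to 2.45 for Adipoq, 0.52 to 2.52 for Lep, -0.20 to 1.82 for Retn, -0.68 to 1.28 for Cfd, -1.26 to 0.90 for Plin1, 0.24 to 2.27 for Cidec, -0.23 to 0.38 for Cidea, 0.45 to 1.02 for Fabp4 and -0.52 to 0.30 for Pparg. The highest genotype value of every member, and the highest slope of all but Cidea, came without Npr1+/+ replicate 4. Where the sign turned under another model, the Lep genotype value was -0.0923 with genotype alone, -0.35 without body weight and -0.0117 by limma-voom, that of Fabp4 was 0.0257 without cage, the Pparg slope was 0.0693 without cage and 0.11 with body weight alone, and without genotype the slopes of Cfd and Cidea were 0.0360 and -0.23.

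Centred on cage, the correlations of Cfd, Plin1, Cidea and Pparg with body weight were 0.0391, 0.0388, -0.18 and -0.15. With library size only that of Plin1 was 0.0361, and without the 2 farthest mice that of Pparg was -0.27.

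The remaining choices were made after the data were seen. With both libraries highest for Adipoq left out, the genotype values of Adipoq, Retn, Cfd, Plin1, Cidec, Fabp4 and Pparg were 0.30, 0.20, 0.66, 0.60, 0.56, 0.16 and 0.52, the slopes of Cfd, Plin1 and Pparg 0.67, 0.41 and 0.33, and the correlation of Plin1 with body weight 0.0897. With the transcript length index as a covariate 2 genes were called by genotype label, the genotype values of Lep and Fabp4 were -0.13 and 0.0722, and the Cidea slope was -0.43. Without the 3 libraries lowest on the index 1 gene was called by genotype label, those values were -1.0 and 0.0842, and the slopes of Plin1 and Cidea were 0.11 and -0.17.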
